A study of Mus musculus with 6 samples.

Results

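The genes described here encode the protein entry, folding and glycosylation machinery of the endoplasmic reticulum (ER). They are 39 genes given by name: 14 lumenal and ER chaperones, 12 subunits of the translocon and of the targeting receptor, 7 oligosaccharyltransferase subunits, 5 signal peptidase subunits and Sel1l, an adaptor of ER-associated degradation. All 39 were found among the 51912 genes matched in the files, and all 39 passed the filter on low counts that left 13231 genes for testing.

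Poly(A) RNA was sequenced at 2 steps of RAPIDASH, a ribosome purification that needs no tag, in E14, an established embryonic stem cell line of the mouse. Cells of both groups were grown in serum medium with LIF and were given 100 µg/mL cycloheximide, which holds ribosomes on their messages, for 3 minutes. The lysates were spun through a sucrose cushion, and the pelleted material was divided. The pellet group (3 libraries) was extracted directly, and the eluate group (3 libraries) first passed over a resin that carries cysteine. The comparison of eluate with pellet asks what the resin adds to, or takes from, the messages that the cushion alone brings down. Whether the replicates were grown as separate cultures is not stated, and a p-value here reflects only how far these 6 libraries scatter.

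Most proteins that enter the secretory pathway are made by ribosomes docked on the Sec61 channel of the ER membrane. The signal recognition particle and its receptor bring the ribosome there, signal peptidase removes the signal peptide, and oligosaccharyltransferase adds N-linked glycans as the chain comes through. Chaperones of the HSP70, HSP90, lectin and protein disulfide isomerase families then fold the chain in the lumen, and many of their genes are known targets of the unfolded protein response.

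The libraries held 7.84e+06 to 1.16e+07 estimated read counts. On the first principal component of log CPM over all genes, pellet 1 lay at -19.1, pellets 2 and 3 at -42.9 and -45.3, and the eluates between 30.5 and 41.8, so pellet 1 stood nearer to the eluates than the other pellets did. All 10 embryonic stem cell markers were detected in every library, with a summed TPM (a level corrected for message length) of 11557 to 12952 in pellets and 15355 to 15416 in eluates. The summed TPM of 13 markers of other cell types was 16.4 to 21.8 in pellets and 20.7 to 23.0 in eluates, with up to 2 of them at 0 in a library, and their part in the results was not tested. In bulk fractions, less of 1 message and more of all the others cannot be told apart, nor can fewer cells of a type and less RNA per cell.

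The ER genes did not move as a block. In the eluates 10 of the 39 rose, 15 fell and 14 did not pass the test (edgeR's quasi-likelihood test, Benjamini-Hochberg adjusted p under 0.05 over all genes tested). Over all 13231 genes 24.5% rose and 28.2% fell, 52.7% in all, so the members' share of higher calls is close to the background and that of lower calls is above it, a difference that was not tested. Their median log2 fold change, eluate over pellet, was -0.14, beside 0.00345 for all genes tested. The 3 eluates all lay above the 3 pellets for 10 members (29.1% of all genes) and all below them for 18 (31.2% of all genes), and they overlapped for 11. Each role of the machinery held messages that rose and messages that fell, Sel1l aside. Of the 39 members 37 changed by less than 1 on the log2 scale.

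**Figure D1:**
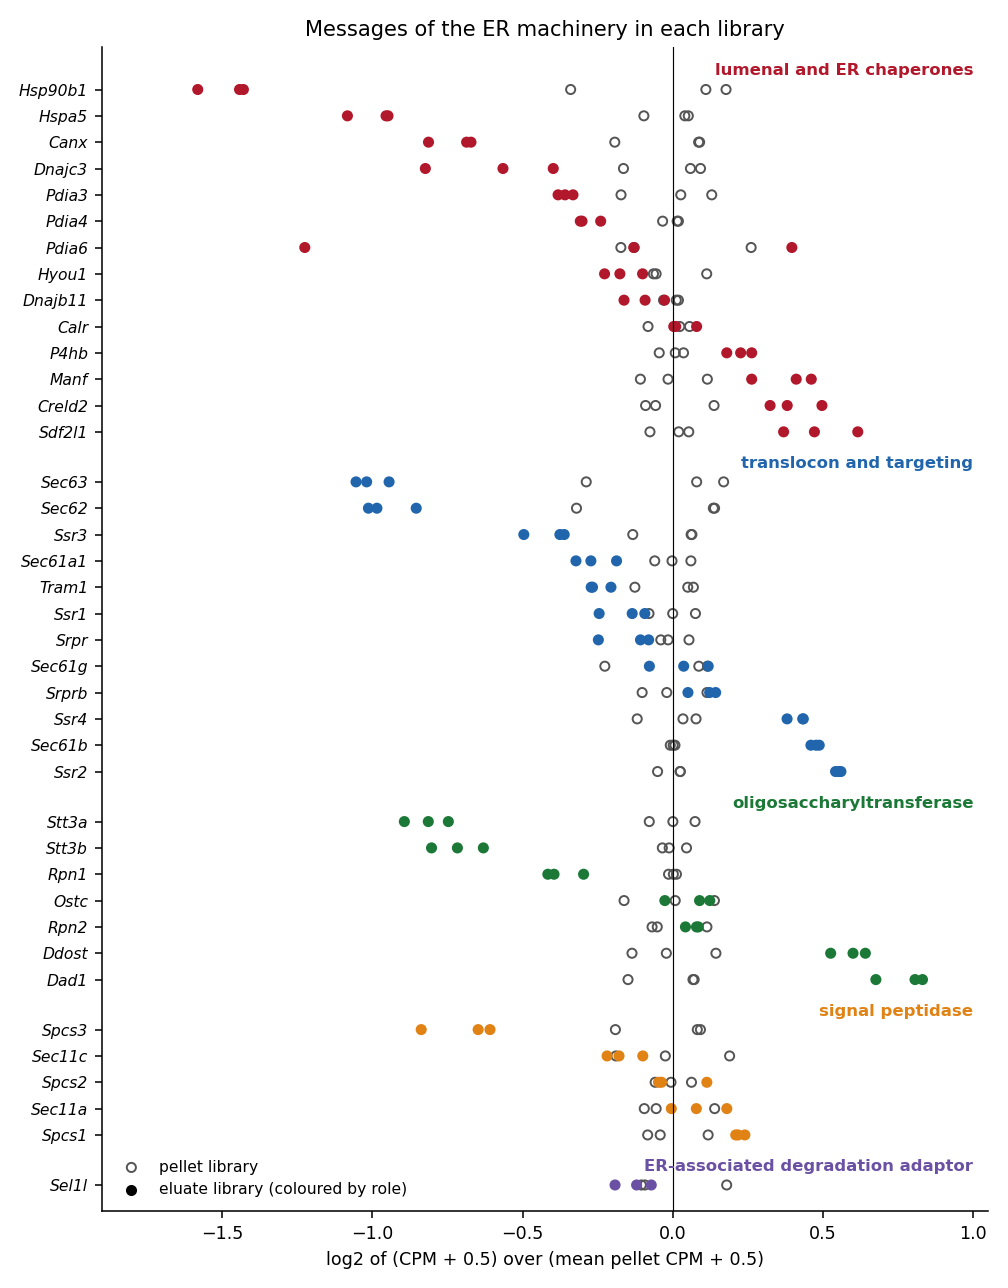
Level of each of the 39 messages in the 6 libraries, as log2 of (CPM + 0.5) over the mean pellet value, with pellets as open circles and eluates as filled circles coloured by role. Hsp90b1, Hspa5, Sec63 and Sec62 lie far to the left in all 3 eluates, Dad1, Ddost and Ssr2 lie to the right, and pellet 1 is the lowest pellet for 11 of the 15 messages that fell.

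Among the 14 chaperones, 6 messages fell and 4 rose. The largest fall was that of Hsp90b1, which encodes GRP94, the HSP90 of the ER lumen. It was at 377, 540.1 and 516 CPM (a message's counts scaled to the library's total, with TMM factors) in the pellets, in the order of their numbers, and at 177, 176 and 159 CPM in the eluates. All eluates lay below all pellets, and pellet 1 was the lowest pellet. The log2 fold change was -1.48 ± 0.13 (SE, adjusted p = 2.42e-05). Hspa5 encodes BiP, the HSP70 of the lumen, which also helps to seal and drive the translocon. Its message was at 381, 419 and 422 CPM in pellets and at 210.1, 211 and 192 CPM in eluates, a log2 fold change of -0.99 ± 0.07 (SE, adjusted p = 5.86e-08). The pellets lay close together and the eluates lay close to 0.502 of them.

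The other 4 chaperone messages that fell did so by less. Canx encodes calnexin, the membrane-bound lectin that holds monoglucosylated glycoproteins, and its message went from 409 ± 44.4 CPM in pellets to 248 ± 13.2 CPM in eluates (mean ± SD, n = 3 each, log2 fold change -0.72). Pdia3, the disulfide isomerase that works with calnexin and calreticulin, went from 278 ± 29.1 to 217 ± 3.75 CPM (-0.36). Dnajc3, a J-domain co-chaperone of BiP also known as P58IPK, went from 25.5 ± 2.45 to 16.9 ± 2.53 CPM (-0.60). Pdia4 (ERp72), another disulfide isomerase, went from 106 ± 2.15 to 87.4 ± 2.31 CPM (-0.28). For all of them the groups did not overlap.

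The 4 chaperone messages that rose were Sdf2l1, Creld2, Manf and P4hb. Sdf2l1, a partner of BiP and its J proteins, was at 55.7, 52.1 and 57.0 CPM in pellets and at 71.1, 76.4 and 84.5 CPM in eluates. Every eluate lay above every pellet, with a log2 fold change of 0.49 ± 0.09 (SE, adjusted p = 1.68e-04). Manf, a small secreted factor that binds BiP, had the highest mean TPM of the chaperones, 217, and was at 197, 216 and 185 CPM in pellets and 239.5, 265 and 275 CPM in eluates (0.38 ± 0.08, SE, adjusted p = 5.35e-04). Creld2, a small protein with EGF-like repeats made under ER stress, went from 73.3 ± 6.43 to 97.0 ± 6.00 CPM (mean ± SD, n = 3 each, 0.40). P4hb, the founding protein disulfide isomerase, went from 321 ± 9.12 to 375 ± 10.8 CPM (0.22). The main lumenal HSP70 and HSP90 thus fell while 3 messages with short coding sequences (495 to 1050 bases) and that of P4hb rose.

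For 4 chaperones the test was not passed, which does not show that their levels were equal. Calr encodes calreticulin, the soluble counterpart of calnexin, and was at 365, 339 and 373 CPM in pellets and 379, 359.8 and 361 CPM in eluates (log2 fold change 0.03 ± 0.06, SE). Its groups overlapped, whereas those of Canx did not. Hyou1 (GRP170), an exchange factor of BiP, was at 145, 129 and 129 CPM in pellets and 125, 115 and 119 CPM in eluates (-0.17 ± 0.07, SE, edgeR adjusted p = 0.0685). Its eluates all lay below its pellets. Dnajb11 (ERdj3), a J protein of BiP, was at 70.2, 70.5 and 68.1 CPM in pellets and 65.3, 68.3 and 62.2 CPM in eluates (-0.09 ± 0.08, SE). Pdia6, a disulfide isomerase, was at 49.0, 36.1 and 37.3 CPM in pellets and 17.2, 53.8 and 37.2 CPM in eluates, with an SE of 0.47 on the log2 scale. It is counted from 1 matched transcript, and the eluates alone span the pellets' whole range.

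Many genes of the unfolded protein response share a promoter motif that the factor ATF6 binds together with NF-Y. This ER stress response element, searched as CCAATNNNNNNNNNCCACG on both strands from 250 bases before to 50 bases after the gene's start, was found in 7 of the 12 chaperones with an entry in the RefSeq promoter table (GRCm38.p6). Among the members of the other roles with an entry (9, 6, 3 and 1), none held it in this window. It was found in 39 of 32817 promoters in that table (0.119%). Counted by gene, as for the members, it was found in 0.183% of the 9831 tested genes with an entry. A match describes letters and is not a tested site, and the libraries compared here do not measure transcription. The 4 sites below are shown because they belong to the message with the largest fall, to BiP, to a message that did not pass the test and to one that rose. Each is read 5′ to 3′ on the gene's strand, with the fixed letters of the motif in capitals. The Hspa5 site is chr2:34772017-34772051 (plus strand), that of Hsp90b1 is chr10:86705630-86705664 (minus strand), that of Calr is chr8:84847067-84847101 (minus strand) and that of Creld2 is chr15:88819512-88819546 (plus strand).
Hspa5: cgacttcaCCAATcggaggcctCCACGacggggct
Hsp90b1: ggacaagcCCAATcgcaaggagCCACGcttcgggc
Calr: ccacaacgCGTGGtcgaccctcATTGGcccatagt
Creld2: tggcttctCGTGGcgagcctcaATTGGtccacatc
In Calr and Creld2 the motif lies on the other strand, so it reads as its reverse complement. Hsp90b1 held a second match, and Canx, Dnajc3 and Pdia6 held 1 each. Of these 7 messages 4 fell (Hsp90b1, Hspa5, Canx and Dnajc3), 1 rose (Creld2) and 2 did not pass the test (Calr and Pdia6). Sharing the element thus went with opposite fold changes at the resin step.

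The translocon and targeting group showed the same mixture, with 3 messages higher, 5 lower and 4 without a call among 12. The Sec61 channel has 3 subunits, and their messages moved apart. Sec61a1, the pore, fell from 188 ± 7.85 to 157 ± 7.48 CPM (mean ± SD, n = 3 each, log2 fold change -0.26), a call that was lost with upper quartile scaling (-0.17, edgeR adjusted p = 0.0516). Sec61b, a small tail-anchored subunit, rose from 121 ± 0.662 to 169 ± 1.64 CPM (0.48). Sec61g, the other small subunit, had the highest mean TPM of all members, 702, and was at 199, 248 and 253 CPM in pellets and 239, 253 and 221 CPM in eluates (0.03 ± 0.09, SE). Its groups overlapped.

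Sec62 and Sec63 assist post-translational entry, and Sec63 also recruits BiP through its J domain. Both messages fell. Sec62 was at 49.3, 67.8 and 68.0 CPM in pellets and 30.9, 33.9 and 30.3 CPM in eluates (-0.96 ± 0.12, SE, edgeR adjusted p = 1.14e-05). Pellet 1 was the low pellet and still lay above all eluates. Sec63 was at 23.1, 31.9 and 29.9 CPM in pellets and 14.5, 13.4 and 13.7 CPM in eluates (-1.03 ± 0.13, SE, edgeR adjusted p = 1.16e-05).

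The translocon-associated protein (TRAP) complex, which sits beside Sec61 and helps certain chains to enter, is made of Ssr1 to Ssr4, and its 4 messages also went separate ways. Ssr2 rose from 336, 336 and 319 CPM in pellets to 481, 487 and 484 CPM in eluates (0.55 ± 0.06, SE, edgeR adjusted p = 2.45e-06). The eluates were nearly identical and far above the pellets. Ssr4 rose from 85.7 ± 6.04 to 115 ± 2.43 CPM (mean ± SD, n = 3 each, 0.42), and Ssr3 fell from 304 ± 23.3 to 229 ± 11.6 CPM (-0.41). Ssr1 was at 173, 183 and 193 CPM in pellets and 154, 166 and 171 CPM in eluates (-0.16 ± 0.07, SE, edgeR adjusted p = 0.0722). It did not pass the test, although its eluates all lay below its pellets. Tram1, a membrane protein next to the channel, fell from 104 ± 7.59 to 87.2 ± 2.25 CPM (-0.25, edgeR adjusted p = 0.0116), a call that was lost without pellet 2 (0.0593), pellet 3 (0.0523) or eluate 2 (0.0561), and with upper quartile scaling (0.0881).

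The receptor of the signal recognition particle has 2 subunits, and neither message passed the test. Srpr was at 122, 120.0 and 128 CPM in pellets and 117, 104 and 115 CPM in eluates (-0.14 ± 0.07, SE). Srprb was at 61.7, 56.2 and 53.0 CPM in pellets and 59.0, 62.9 and 62.1 CPM in eluates (0.11 ± 0.08, SE). The eluates lay below the pellets for Srpr and overlapped them for Srprb.

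In oligosaccharyltransferase, the enzyme of N-glycosylation, the messages of the catalytic subunits fell and those of accessory subunits rose or did not pass the test, with Rpn1 as an exception. Stt3a, the catalytic subunit of the complex that works at the translocon, was at 112, 106 and 118 CPM in pellets and 66.4, 63.4 and 60.0 CPM in eluates (-0.82 ± 0.08, SE, edgeR adjusted p = 5.83e-07). Stt3b, the catalytic subunit of the other complex, went from 108 ± 3.13 to 65.6 ± 3.95 CPM (mean ± SD, n = 3 each, -0.72). Both were at similar CPM in pellets and fell by similar amounts in CPM, with no overlap between the groups on that scale. The call of Stt3a was lost with limma on log2(TPM + 1) (-0.38, adjusted p = 0.433) and with an effective-length offset (-0.26, adjusted p = 0.646). In TPM Stt3a was at 24.7, 19.2 and 22.5 in pellets and 13.3, 28.9 and 11.9 in eluates, so eluate 2 lay above every pellet. Its counts do not show this, since in CPM eluate 2 lay between the other eluates. TPM is summed over 2 transcripts, of which the main one held 99.8% of the counts. The source of the high TPM in eluate 2 was not tested. Rpn1 (ribophorin I) fell from 164 ± 1.51 to 127 ± 5.68 CPM (-0.37).

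Dad1, the subunit with the shortest coding sequence of the 7, showed the largest rise of the 39. Its message was at 98.9, 84.8 and 98.6 CPM in pellets and 151, 165 and 168 CPM in eluates (0.78 ± 0.08, SE, edgeR adjusted p = 1.21e-06), 1.71-fold higher. Ddost (OST48) rose from 158 ± 15.6 to 239 ± 9.64 CPM (0.59). Rpn2 (ribophorin II) was at 159, 139.7 and 141 CPM in pellets and 155, 151 and 155 CPM in eluates (0.07 ± 0.07, SE). Ostc, which links the Stt3a complex to the translocon, had the highest mean TPM of the enzyme, 201, and was at 139, 171 and 157 CPM in pellets and 153, 169.6 and 166 CPM in eluates (0.06 ± 0.08, SE). For Rpn2 and Ostc the groups overlapped.

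Signal peptidase gave 1 rise, 1 fall and 3 messages without a call. Spcs3, an accessory subunit needed for cleavage, was at 94.7, 114 and 115 CPM in pellets and 60.3, 68.8 and 70.8 CPM in eluates (-0.70 ± 0.09, SE, edgeR adjusted p = 1.35e-05). Spcs1, a small accessory subunit, was at 68.1, 76.1 and 66.1 CPM in pellets and 81.1, 81.6 and 82.9 CPM in eluates (0.22 ± 0.08, SE, edgeR adjusted p = 0.0259). The rise of Spcs1 is a weak call. Its adjusted p was 0.117 without pellet 3 and 0.0591 to 0.0749 without an eluate.

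The remaining messages of the enzyme and Sel1l had overlapping groups. Spcs2 was at 111, 115 and 120.2 CPM in pellets and 112, 125 and 111 CPM in eluates (0.01 ± 0.07, SE). Sec11a and Sec11c are alternative catalytic subunits. Sec11a was at 52.5, 60.1 and 51.04 CPM in pellets and 57.6, 61.8 and 54.4 CPM in eluates (0.08 ± 0.09, SE). Sec11c was the least counted member, at 8.74, 10.2 and 7.75 CPM in pellets and 7.58, 8.28 and 7.81 CPM in eluates, with as few as 58 counts in a library (-0.18 ± 0.16, SE). Sel1l, which holds the HRD1 ubiquitin ligase complex together, was at 28.7, 28.4 and 34.7 CPM in pellets and 29.1, 26.7 and 28.1 CPM in eluates (-0.13 ± 0.11, SE).

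The lumenal chaperones and the membrane machinery (the 24 translocon, targeting, oligosaccharyltransferase and signal peptidase subunits) differed little when counted by message. The chaperones' median log2 fold change was -0.17, with 4 higher and 6 lower of 14, and that of the membrane machinery was -0.07, with 6 higher and 9 lower of 24. No test was made of this difference, and leaving out 1 library in turn gave medians of -0.23 to -0.10 for the chaperones and -0.11 to -0.02 for the machinery, so the order is reversed without pellet 1. Counted by reads the roles parted further. The 14 chaperones together held 0.293% ± 0.00394 of matched counts in pellets and 0.235% ± 0.00127 in eluates (mean ± SD, n = 3 each). The lowest pellet, at 0.289%, lay well above the highest eluate, at 0.236%. The 24 machinery messages held 0.309% ± 0.00528 in pellets and 0.317% ± 0.00350 in eluates. Of the messages that fell, Hsp90b1, Hspa5 and Canx have the highest CPM and so weigh most in the chaperone sum.

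**Figure D2:**
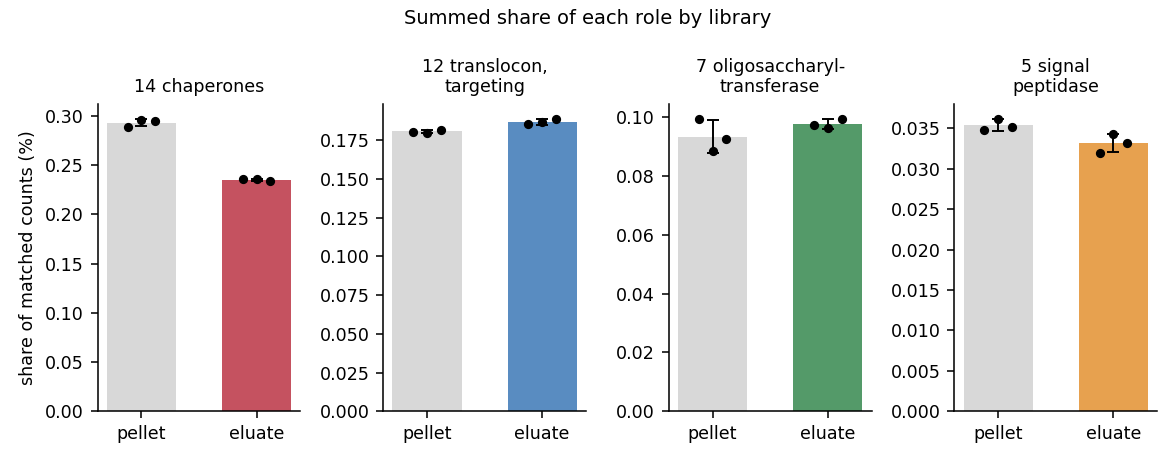
Summed share of matched estimated counts (%) for each role, with bars for the mean of 3 libraries, error bars for the SD and points for single libraries. The chaperone share is lower in all 3 eluates, and the translocon share, 0.180% in pellets and 0.187% in eluates, is slightly higher in them.

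Within several roles the ratio of 2 messages differed between the steps. The pairs were chosen after their values were seen, so no test is given, and ratios are of TPM. Sec61b over Sec61a1 was 6.53, 7.37 and 6.80 in pellets and 10.97, 12.2 and 11.8 in eluates. Ssr2 over Ssr3 was 3.20, 2.97 and 2.73 in pellets and 5.60, 5.32 and 5.18 in eluates. Both ratios were higher in every eluate than in any pellet. Dad1 over Stt3b went from 4.94 ± 0.270 to 13.6 ± 1.67 (mean ± SD, n = 3 each), and Spcs1 over Spcs3 from 3.91 ± 0.430 to 7.35 ± 0.446. These ratios carry the trend in G+C and length described below, and with it removed Ssr2 was at 0.12 without a call and Ssr3 at 0.35, called higher, so that the order of this pair turned. In the chaperones Creld2 over Hsp90b1 went from 0.323 ± 0.0499 to 1.11 ± 0.133, so that the smaller message was at a lower level per length than Hsp90b1 in pellets and about level with it in eluates.

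Outside the rule, the messages that rose differed from those that fell in base composition, length and level, although the ranges overlapped. The 10 that rose had a median G+C content of 54.4% and a median length of 1093 bases, and the 15 that fell had medians of 43.5% and 3466 bases. The 14 without a call lay between them, at 49.2% and 2222 bases. The medians of mean TPM were 165 for the messages that rose, 40.7 for those that fell and 39.9 for those without a call. TPM is corrected for message length, so these medians are not separate from the difference in length. Across the 39 members the log2 fold change correlated with G+C content at Pearson's r = 0.726 and Spearman's rho = 0.727, and with length at r = -0.639 and rho = -0.679. With mean TPM on a log scale it correlated at r = 0.471 and rho = 0.505. That r was 0.746 within the membrane machinery and 0.072 within the chaperones, where length gave r = -0.717 and r = -0.613. The points share the same 6 libraries and genes are not independent replicates, so no p is given. The same relation to G+C and length held over all 13231 genes tested (G+C r = 0.665, rho = 0.709, length r = -0.380, rho = -0.435), so it is not particular to the ER genes. That to mean TPM was weaker over all genes (r = 0.197, rho = 0.206). Of the 24 members under 50% G+C, 2 rose (Manf and Spcs1), and of the 15 at or above 50%, 2 fell (Sec61a1 and Rpn1). Such calls were also few among all genes of like G+C. With all genes grouped by G+C, 0.98% to 10.1% rose in the groups up to 48.9%. In the group from 48.9% to 50.8%, 14.9% rose and 24.8% fell. In the groups above 50.8%, 0.68% to 13.1% fell. The members' counts were not tested against these shares.

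**Figure D3:**
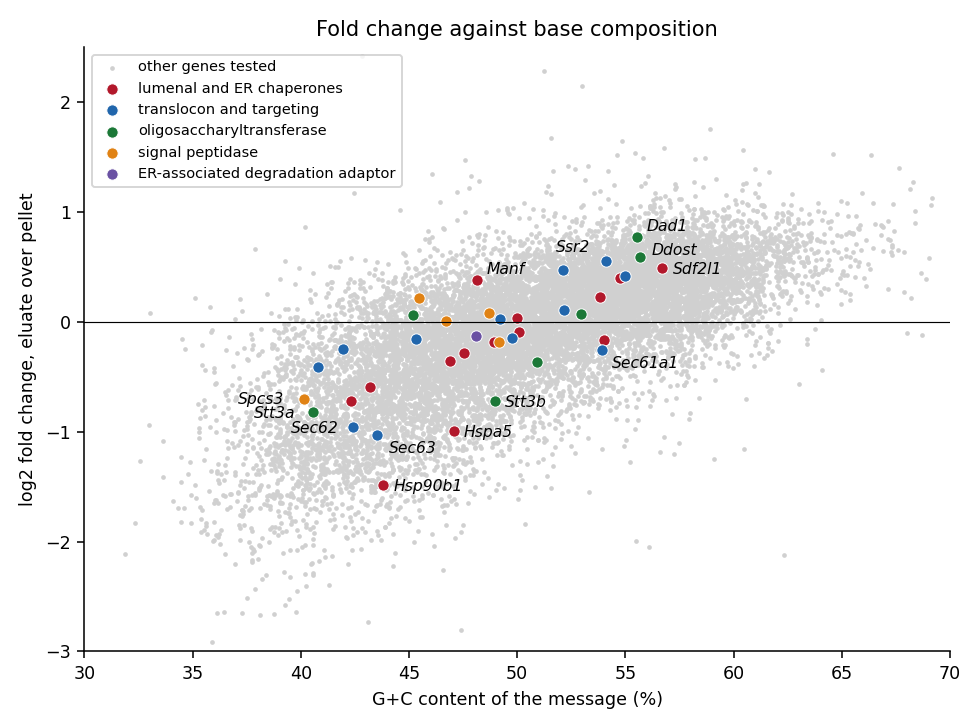
Log2 fold change, eluate over pellet, against the G+C content of the message (%) for the other genes tested (grey) and the 39 members (coloured by role). The members follow the slope of all genes (20 genes beyond the axes are not drawn), while Hsp90b1, Hspa5 and Stt3b lie under the cloud's centre and Manf above it.

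The contrast can be read in the coding sequences themselves. The stretches below are the central 90 coding bases of the message with the largest fall and the largest rise among the chaperones and in oligosaccharyltransferase, from the GENCODE M21 transcripts (GRCm38), with G and C in capitals. They cover coding bases 1159 to 1248 of Hsp90b1 on chromosome 10, 289 to 378 of Sdf2l1 on chromosome 16, 1015 to 1104 of Stt3a on chromosome 9 and 127 to 216 of Dad1 on chromosome 14.
Hsp90b1: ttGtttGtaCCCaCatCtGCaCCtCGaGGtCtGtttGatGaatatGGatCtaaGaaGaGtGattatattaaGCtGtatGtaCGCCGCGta
Sdf2l1: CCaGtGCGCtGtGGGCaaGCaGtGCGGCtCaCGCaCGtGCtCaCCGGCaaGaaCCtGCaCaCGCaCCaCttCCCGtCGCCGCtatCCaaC
Stt3a: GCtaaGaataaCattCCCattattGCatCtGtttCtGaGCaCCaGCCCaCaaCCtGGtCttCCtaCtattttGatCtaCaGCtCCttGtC
Dad1: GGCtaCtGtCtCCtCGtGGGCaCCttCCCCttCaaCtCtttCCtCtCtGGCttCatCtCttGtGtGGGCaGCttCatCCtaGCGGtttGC
G and C make up 43.2% of the coding bases of Hsp90b1 and 62.3% of those of Sdf2l1, and 45.4% for Stt3a and 56.1% for Dad1. At the third base of the codon the shares were 45.0% in Hsp90b1, 71.6% in Sdf2l1, 48.9% in Stt3a and 79.0% in Dad1. The coding sequences are 2406 bases long in Hsp90b1, 663 in Sdf2l1, 2115 in Stt3a and 339 in Dad1, so the 2 messages that rose were also the shorter ones.

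When each library's smooth trend in G+C and length over all genes was removed, 11 members were higher, 7 lower and 21 without a call, where 19.1% of all genes were higher and 15.9% lower (35% in all). With the trend in G+C alone removed, 12 members were higher and 8 lower, where 22.3% of all genes were higher and 18.8% lower (41.1% in all). The calls of 11 members kept their direction: Hspa5, Hsp90b1, Sec61a1, Sec62, Rpn1 and Stt3b as lower, and Manf, Sec61b, Ddost, Dad1 and Spcs1 as higher. Hsp90b1 remained the lowest member at -0.96 ± 0.06 (SE, edgeR adjusted p = 1.90e-10), and Hspa5 followed at -0.74 ± 0.05 (SE, edgeR adjusted p = 2.20e-11). The 2 main lumenal chaperones thus lay below genes of their composition and length. Stt3b was at -0.47 ± 0.07 and Sec61a1 at -0.40 ± 0.06 (SE). Manf was at 0.40 ± 0.06 (SE), almost the value it had before. Dad1 and Ddost came down to 0.28 each and were still called.

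Other members lost their call or turned. Canx went from -0.72 to 0.0002, Stt3a from -0.82 to 0.21 and Sdf2l1 from 0.49 to -0.04, and none of the 3 passed the test once the trend was removed. Stt3a and Stt3b, which fell by similar amounts as measured, therefore parted here. Ssr3 (0.35) and Tram1 (0.43) were called higher instead of lower, and Hyou1 (-0.20), Ssr1 (0.64), Ostc (0.23), Spcs2 (0.26) and Sel1l (0.34) gained a call. Ssr1 has the longest message of the members, 8361 bases. The trend was fitted over all genes and its origin was not tested. By role, 1 chaperone was higher and 3 lower of 14 (median -0.06), and 9 machinery members were higher and 4 lower of 24 (median 0.08).

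**Figure D4:**
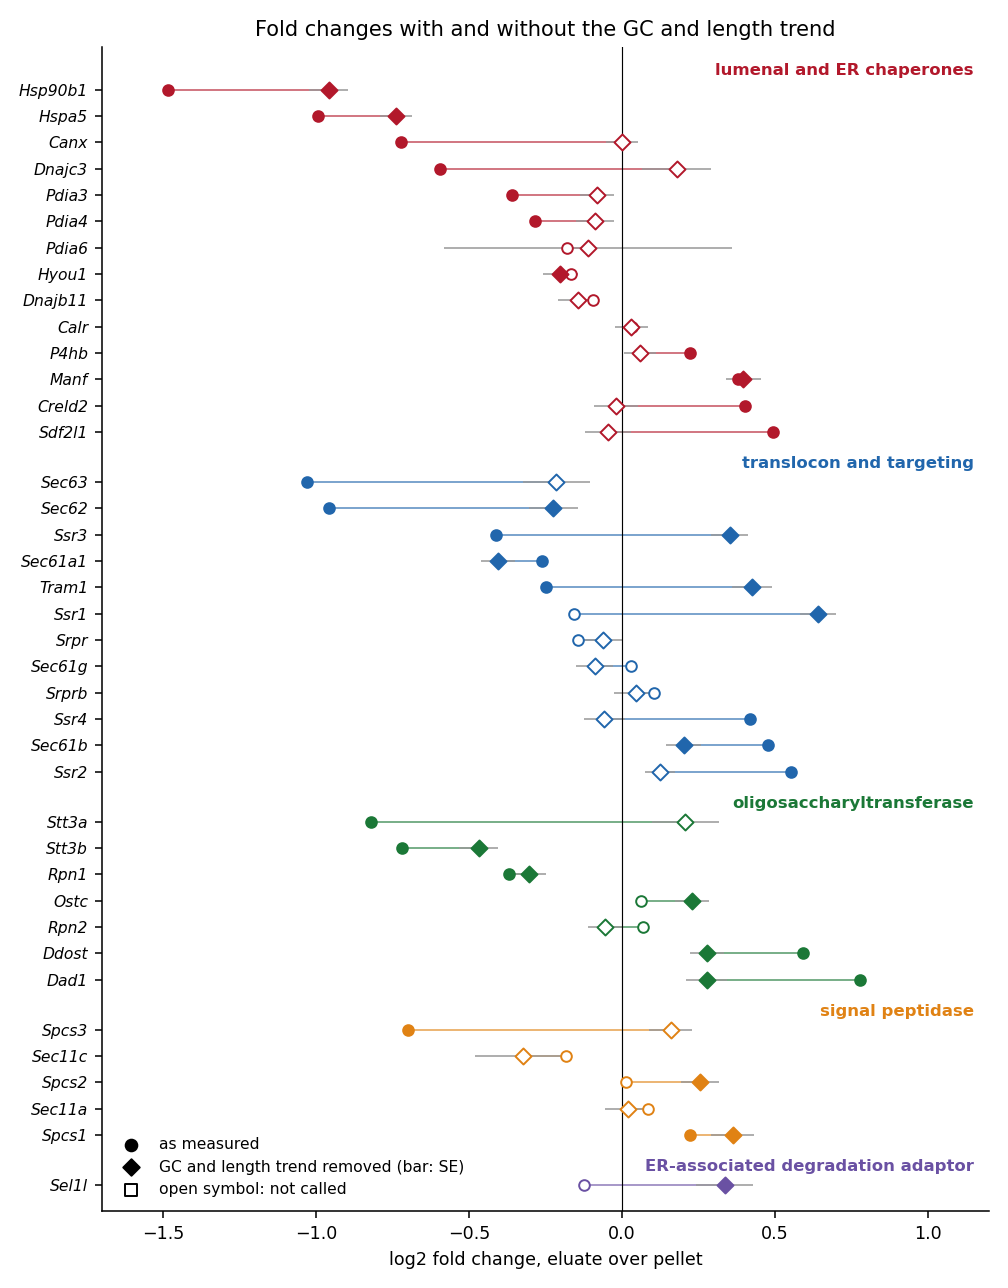
Log2 fold change of each member as measured (circles) and with the G+C and length trend removed (diamonds, bars for the SE), filled where the adjusted p is under 0.05. Hsp90b1 and Hspa5 stay far below 0, Canx and Sdf2l1 move to about 0, and Ssr1, Ssr3 and Tram1 cross to the right.

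Some members are less certain because of how reads were assigned. The share of 31-base words also found in other genes' transcripts was 54.5% for Sec61b, 53.9% for Sec61g, 30.2% for Srpr and 29.4% for Srprb, and under 9% for the others. The Gm10177 model, which shares them with Sec61g, summed to 328 estimated counts in pellets and 526 in eluates, beside 6050.0 and 7737 for Sec61g. Gm10320, the model that shares most with Sec61b, held 3.04 counts in pellets and 2.01 in eluates, and Gm20425, which shares most with Srprb, held 0. The Sel1l total covers 2 transcripts with different values. Its longer one, of 6300 bases, was at 27.2, 18.1 and 20.9 CPM in pellets and 14.6, 15.7 and 14.04 CPM in eluates, while the other, of 5544 bases, was at 1.39, 10.2 and 13.8 CPM in pellets and 14.5, 10.97 and 14.04 CPM in eluates. The low value of the second rests on pellet 1, and reads of such overlapping transcripts can be exchanged in the estimate. The transcripts of Hspa5 were both lower in eluates, the main one going from 364 ± 23.0 to 184 ± 12.8 CPM and the minor one from 43.2 ± 0.519 to 20.3 ± 2.69 CPM in group means (SD, n = 3 each), with no test at this level.

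The authors' deposited table of the same comparison lists 22 of the 39 members, and all 22 have the direction found here. It gives Hsp90b1 a log2 fold change of -1.40, Hspa5 -0.96 and Dad1 0.75 in the authors' deposited table, and the 3 members called here that it does not list are P4hb, Stt3a and Tram1. It rests on the same libraries and is no independent measurement.

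Genes that work beside the members were also split. Of 28 other folding enzymes 11 rose and 7 fell, beside 24.5% and 28.2% of all genes. Among them Cnpy3, a co-chaperone of GRP94, was the highest (0.59), Tmx3, a membrane disulfide isomerase, was the lowest (37.1 ± 6.70 CPM in pellets, 18.5 ± 3.85 CPM in eluates), and the abundant cyclophilin Ppib rose (0.33). Removing the G+C and length trend left 8 of the 28 higher and 3 lower, beside 19.1% and 15.9% of all genes. Tmx3 was then called higher (0.35, edgeR adjusted p = 0.0067), and Cnpy3 (0.16) and Ppib (0.0083) had no call. Of 26 genes of ER-associated degradation 8 rose and 7 fell, with Edem2 (0.64) as the highest at a mean CPM of at least 10 and Edem3 (-1.29) as the lowest, both mannosidase-related factors, and the abundant ATPase Vcp fell (-0.53). Without that trend 6 of the 26 were higher and 3 lower, and Edem2 (0.46), Edem3 (-0.46) and Vcp (-0.43) kept their calls. Of 29 genes that build or trim the glycan 8 rose and 8 fell. Among them were Srd5a3 (0.65), which makes dolichol, Alg11 (-0.99), a mannosyltransferase, and Dpm3 (0.63), a small subunit of dolichol-phosphate-mannose synthase. Without the trend 5 of the 29 were higher and 3 lower. Srd5a3 kept its call (0.49), and Alg11 (-0.11) and Dpm3 (0.15) lost theirs.

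Of 14 tested further partners of oligosaccharyltransferase and the translocon 7 rose and 3 fell (24.5% and 28.2% of all genes). With the G+C and length trend removed 4 were higher and 4 lower (19.1% and 15.9% of all genes). Wdr83os (0.80), a small membrane chaperone factor, and Tmem258 (0.38), a small oligosaccharyltransferase subunit, rose, and Ccdc47 (-1.08), a ribosome-binding partner of the translocon, fell. Without the trend Wdr83os (0.56) and Ccdc47 (-0.30) kept their calls, and Tmem258 (0.12) lost its own. Of 15 sensors and effectors of the unfolded protein response 4 rose and 3 fell, and 8 were without a call, a share of calls close to the 52.7% of all genes. Trib3 rose (0.59), the sensor Atf6 fell (-0.71), and the abundant Atf4 was at 260.4 ± 14.3 CPM in pellets and 276 ± 1.99 CPM in eluates (mean ± SD, n = 3 each, 0.08), without a call. Removing the trend left 4 of the 15 higher and 1 lower. Atf4 was then called lower (-0.23, edgeR adjusted p = 5.91e-04), and Trib3 (0.17) and Atf6 (-0.02) had no call.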

How the data were processed

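The members and lists were chosen with earlier results of these data known. The submitters' processing notes name build GRCm39 and the tools Salmon 1.10.3, DESeq2 1.44.0, STAR 2.7.11b and cutadapt 4.7; neither their roles and settings nor the annotation release is given in the sources used here. As shown by the headers, the authors deposited estimated counts and TPM per transcript for each library, and a table of their comparison with mean normalized counts (a signal), log2 fold changes, a Wald score and p-values.

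Of 84226 transcripts 76858 were matched by identifier to GENCODE M21, 75250 with the same length; unmatched transcripts held 1.63% to 2.35% of counts and were left out. Estimated counts were summed per gene, rounded and tested in edgeR 4.0.16 under R 4.3.3 (TMM, default filter, robust quasi-likelihood, Benjamini-Hochberg), with all 6 libraries and no covariate. On simulated data with few changed genes the fit recovered most of them, but more of its calls were false than the threshold's nominal share. Far more genes were called in the real data, so that share need not carry over. Calls near the threshold can still be less firm than their adjusted p reads. TPM was used for levels between genes. Trend removal fitted splines with 5 degrees of freedom to G+C and log length in each library. Values in every library are given for the members of each role with the smallest p in each direction or the highest mean TPM, for those without a call, and for Hsp90b1 and Sec63 as the largest changes. In other lists the highest and lowest called gene and the most abundant (mean CPM of at least 10) are named. DESeq2 1.42.0 and limma 3.58.1 were alternatives. Gene G+C and length are means over transcripts weighted by counts. Coordinates are of GRCm38, not the build of the counts.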

Additional observations from a re-analysis of the deposited data

How the results depend on the processing

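With 21 alternatives, 741 of 818 member values kept their side of the threshold, with no change of sign where either fit gave a call. Of these, 18 changed sign without a call in either fit. By the same rule 31 members stayed as they were in every alternative that left the G+C trend in place. A reversal here is a change of sign where either fit gave a call, so a value that lost its call can count. With G+C and length removed, only Ssr3 and Tram1 were called in both fits with opposite signs. All 27 reversals came with a trend removed. With G+C and length removed they were Canx 0.00021, Dnajc3 0.18, Sdf2l1 -0.044, Creld2 -0.020, Ssr1 0.64, Ssr3 0.35, Ssr4 -0.058, Tram1 0.43, Stt3a 0.21, Spcs3 0.16 and Sel1l 0.34, and with G+C alone Dnajc3 0.040, Ssr1 0.30, Ssr3 0.41, Tram1 0.49, Stt3a 0.015 and Spcs3 0.18. Lower calls were 7 (members) and 2103 (all genes) in the first and 8 and 2487 in the second. The medians of chaperones and membrane machinery, -0.17 and -0.07 as measured, were -0.064 and 0.085 in the first, -0.016 and 0.17 in the second, -0.084 and 0.025 with upper quartile factors (which left 13 members lower, without Sec61a1 and Tram1, and shift all genes' median by 0.09), -0.31 and -0.035 with limma on log2(TPM + 1) (pseudocount 1, 1960 genes higher), and -0.23 and -0.10 with the most abundant transcript. The chaperone median was -0.22 with limma voom. That of the machinery was 0.0096 when genes needed a mean CPM of 10 or more, and 0.039 with an effective-length offset. Leaving out each library gave -0.23 to -0.10 and -0.11 to -0.023. In these fits 23 of 25 calls held (exceptions Tram1 and Spcs1), and Ssr1 was called without pellet 1 (-0.20, adjusted p = 0.0073).

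The labels do not say that equal numbers mark 1 pellet. Once each gene's group mean was subtracted from log CPM, same-numbered libraries correlated at 0.0698, 0.151 and -0.0102. Replicate 2 alone was closest to its own number. Without that subtraction, pellet and eluate libraries correlated at 0.940 to 0.967. With the replicate block 17 members were lower and 10 higher, the chaperone median was -0.21, and Hyou1 (0.0427) and Ssr1 (0.0422) passed the test. With the replicate block and the trend removed, 7 members and 2089 genes were lower, the medians were -0.064 and 0.085, and the reversed values were Dnajc3 0.17, Sdf2l1 -0.048, Creld2 -0.018, Ssr1 0.64, Ssr3 0.35, Ssr4 -0.055, Tram1 0.42, Stt3a 0.21, Spcs3 0.16 and Sel1l 0.34. The causes were not tested. With 58 counts at the lowest, Sec11c limits what depth can show.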

Other observations

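Proteins that the Sec61 route does not insert are handled by the ER membrane protein complex (EMC) and by the pathway for tail-anchored proteins. Of 18 genes of these routes 12 rose and 3 fell in the eluates (edgeR adjusted p under 0.05), where 24.5% of all genes rose and 28.2% fell. Their median log2 fold change was 0.31. Emc10 was the highest, going from 34.1 ± 3.57 to 57.0 ± 7.74 CPM (mean ± SD, n = 3 each, 0.74). Asna1, the ATPase that carries tail-anchored proteins, was the most abundant and went from 263 ± 12.7 to 349 ± 6.64 CPM (0.41). Emc2 was the lowest, going from 60.8 ± 17.8 to 33.4 ± 0.626 CPM (-0.87), with a wide spread among pellets. With the G+C and length trend removed, 4 of the 18 were higher and 1 lower, with a median of 0.03. In that setting 19.1% of all genes were higher and 15.9% lower. Emc2 kept its call there (-0.37), and Emc10 (0.14) and Asna1 (-0.09) lost theirs. The subunits of 1 complex again went separate ways, as in the translocon.

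Of 24 tested genes that build or attach the GPI anchor 6 rose and 8 fell, near the 24.5% and 28.2% of all genes, with a median of -0.07. With the G+C and length trend removed 5 were higher and 3 lower (19.1% and 15.9% of all genes), with a median of 0.06. Pigt, a subunit of the transamidase, rose from 47.3 ± 6.15 to 79.9 ± 2.83 CPM (mean ± SD, n = 3 each, 0.76). Pgap1, which remodels the finished anchor, fell from 30.7 ± 4.36 to 14.4 ± 1.67 CPM (-1.09). Once the trend was removed Pgap1 was called higher instead (0.28, edgeR adjusted p = 0.0398), and Pigt kept its call (0.34). Pigx, of the highest mean TPM here, had 35.1 ± 2.82 and 39.5 ± 3.12 CPM in the 2 groups (0.17), without a call.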
